A study of Mus musculus with 48 samples.

Results

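Trib1, Trib2 and Trib3, the genes of the 3 Tribbles pseudokinases, were followed across all stimuli and durations of a cytokine time course in a mouse melanoma line. The members were taken by gene symbol, which gave 3 of the 49671 genes in the count table, and all 3 were among the 12203 genes that passed the filter on low counts. They were picked because Trib3 was higher and Trib2 lower in cells given IFNγ and TNF together, so that contrast is described here without a test.

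Tribbles proteins keep the fold of a protein kinase but have little or no catalytic activity, and act as scaffolds. Trib1 and Trib2 carry substrates, the transcription factor C/EBPα above all, to the ubiquitin ligase COP1, and Tribbles proteins also bind MEK1 and AKT. TRIB2 has been described in human melanoma cells as a repressor of FOXO factors. Trib3 is a target of ATF4 and CHOP, the transcription factors of the integrated stress response, and acts back on that pathway as an inhibitor.

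By the positions in the deposited count table, on the mouse genome build GRCm38, Trib1 (ENSMUSG00000032501) lies on the plus strand at chr15:59648350-59656550. Trib2 (ENSMUSG00000020601) lies on the minus strand at chr12:15791727-15816877, and Trib3 (ENSMUSG00000032715) on the minus strand at chr2:152337422-152344032. The table has 1 value per gene and does not separate isoforms. By GENCODE M21, the microRNA gene Mir6387 overlaps Trib2 and had at most 1 count in any library. No other gene of that annotation overlaps the 3 members.

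The cells were NMM, a line described by the labels as NRAS-mutated mouse melanoma, and every group carries that mutation. The 11 cytokine conditions were IFNγ at 0.01, 1 and 100 ng/ml, TNF at 0.1, 1 and 10 ng/ml, IFNγ at 100 with TNF at 10 ng/ml (the combination), TGF-β at 10 ng/ml, IL-2 at 6000 and IFNα1 at 5000 U/ml, and the lymphotoxin α1β2 heterotrimer at 2 ng/ml. Unstimulated cells were the twelfth group. Each group had 1 library at each of 2, 6, 12 and 24 h of continuous stimulation, 48 libraries in all. The 4 libraries of a group are therefore durations and not replicates, and whether each had a culture of its own is not stated. A single line was used, so differences between lines were not measured.

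Libraries held 5612907 to 9663207 counts, and levels are given as counts scaled to library size with edgeR's TMM factors (normalised CPM). Trib1 had 468 to 1963 counts per library, Trib2 had 68 to 661 and Trib3 had 63 to 689. The label of melanoma rests on few of the lineage markers: Pax3 was at 25.99 to 61.99 CPM and Mitf at 3.50 to 12.6 CPM, while Mlana, Dct and Slc45a2 were at 0 in all 48 libraries and Sox10, Tyr, Tyrp1 and Kit at 0 in 46. Summed over 12 markers, the melanocyte list reached 33.3 to 71.6 CPM in the combination and 44.8 to 52.8 CPM in unstimulated cells. The T cell genes Cd3d, Cd3e, Cd3g and Cd2 and the macrophage gene Adgre1 were at 0 in all 48 libraries. Other markers of these lists were detected: the macrophage gene Cd68 at 1.55 to 5.45 CPM, and the T cell gene Trac at up to 1.09 CPM and at 0 in 5 libraries. The 8 macrophage markers summed to 7.21 to 25.4 CPM in the combination and 3.73 to 6.53 CPM in unstimulated cells. Within that list Mrc1 reached 4.22 to 21.2 CPM in the combination and 0.645 to 2.32 CPM in unstimulated cells; its part in the results below was not tested. Fibroblast markers summed to 16.6 to 30.3 CPM in the combination and 24.5 to 37.4 CPM in unstimulated cells, endothelial markers to 4.35 to 13.5 and 3.74 to 6.80 CPM, and T cell markers to 0.207 to 0.680 and 0 to 0.287 CPM in the same order of groups. In bulk RNA, fewer cells of a type and less RNA per cell cannot be told apart.

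Per kilobase of merged exon, Trib1 stood at 30.6 ± 5.22 normalised CPM per kb in the combination and 14.4 ± 0.366 in unstimulated cells (mean ± SD over 4 durations). Trib2 stood at 2.73 ± 1.42 in the combination and 14.95 ± 1.25 in unstimulated cells, and Trib3 at 19.8 ± 13.5 in the combination and 6.85 ± 2.41 in unstimulated cells, on the same scale. Trib2 was thus the lowest of the 3 in the combination, and Trib3 the lowest in unstimulated cells. Over all 48 libraries Trib1 varied 2.98-fold, between 73.3 and 219 normalised CPM, Trib2 varied 10.5-fold, between 7.83 and 81.9, and Trib3 varied 8.41-fold, between 9.13 and 76.7. The highest values of Trib1 and Trib3 and the lowest of Trib2 all came from the combination.

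**Figure D1:**
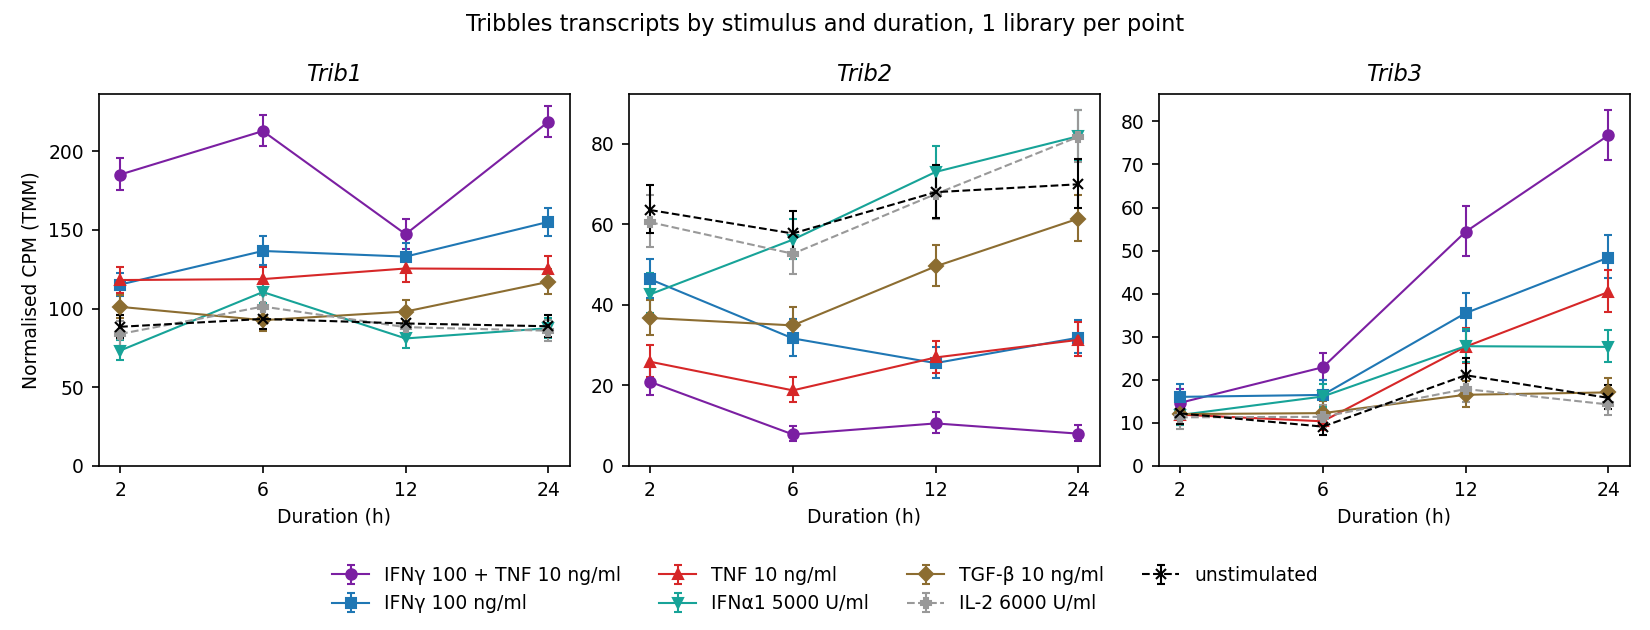
Normalised CPM (TMM) of Trib1, Trib2 and Trib3 against duration in hours for 6 cytokine conditions and unstimulated cells, 1 library per point, with 95% Poisson intervals of the count as bars (counting error only). Combination libraries are highest for Trib1 at all 4 durations and lowest for Trib2, while Trib3 separates after 2 h and reaches 76.7 normalised CPM at 24 h.

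TNF, which signals through NF-κB and MAP kinases, lowered Trib2 and raised Trib1 at its highest dose. Trib2 had 25.9, 18.8, 26.9 and 31.3 normalised CPM at 2, 6, 12 and 24 h with TNF at 10 ng/ml, against 63.6, 57.7, 68.01 and 69.96 in unstimulated cells. Every TNF library lay below every unstimulated one, and the gap was already present at 2 h. Trib1 had 118, 119, 125 and 125 normalised CPM with TNF and 88.4, 93.4, 90.5 and 88.8 in unstimulated cells. Its TNF libraries all lay above the unstimulated ones and stayed within a narrow range over the day. Of all tested genes, 4.13% lay above and 3.01% below the unstimulated libraries without overlap in this way.

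Averaged over the durations, edgeR's quasi-likelihood test gave a log2 change of -1.35 ± 0.21 for Trib2 (approximate standard error, adjusted p = 1.68e-05), 2.55-fold lower with TNF, and of 0.43 ± 0.09 for Trib1 (adjusted p = 0.00111). These are 2 of 3 members, where 17.1% of all tested genes passed, 9.83% higher and 7.30% lower. The unstimulated libraries also entered the contrast by which the genes were picked. Set against IL-2 libraries, which did not, Trib2 was lower by a log2 change of -1.36 (adjusted p = 1.76e-05) and Trib1 higher by 0.44 (adjusted p = 9.55e-04). The Trib2 call held in every alternative run for it. The Trib1 call was lost when only the 2 and 6 h libraries were used (log2 change 0.38, adjusted p = 0.165), and its value in the 12 and 24 h libraries was 0.48 (adjusted p = 0.0124). In the same TNF libraries the 8 macrophage markers summed to 6.39 to 17.5 CPM, against 3.73 to 6.53 CPM in unstimulated cells. Of these, Adgre1 was at 0 and Mrc1 at 3.25 to 12.6 CPM with TNF and 0.645 to 2.32 CPM in unstimulated cells. The fibroblast markers summed to 25.1 to 69.3 CPM with TNF and 24.5 to 37.4 CPM in unstimulated cells. The 4 endothelial markers summed to 4.83 to 18.5 CPM with TNF and 3.74 to 6.80 CPM in unstimulated cells, nearly all of it Cdh5 (4.83 to 17.9 CPM with TNF). With TNF, mitochondrial genes took 1.15, 1.15, 0.736 and 0.695% of counts at 2, 6, 12 and 24 h. In unstimulated cells they took 1.17, 1.20, 0.786 and 0.964%. The part of these markers and of the mitochondrial share in the result was not tested.

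The ratio of Trib3 with TNF to unstimulated cells was highest at 24 h. Its libraries held 11.9, 10.4, 27.7 and 40.4 normalised CPM at 2, 6, 12 and 24 h with TNF at 10 ng/ml and 12.2, 9.13, 21.1 and 15.8 in unstimulated cells. The groups overlapped: the 2 and 6 h values were close to those of unstimulated cells, and the 24 h value was the highest of both groups. The mean over 4 durations missed the threshold, with a log2 change of 0.56 ± 0.24 (adjusted p = 0.101, edgeR). Without the 2 h libraries it passed, at 0.74 (adjusted p = 0.0326), and in the 12 and 24 h libraries alone it was 0.90 (adjusted p = 0.00618), while in the 2 and 6 h libraries it was 0.06 (adjusted p = 0.93). Without the 24 h libraries it was 0.21 (adjusted p = 0.579). The change of the TNF effect with time was tested as a slope, in log2 units per doubling of the hours: 0.39 ± 0.10 for Trib3 (adjusted p = 0.0194), 0.05 ± 0.07 for Trib2 (adjusted p = 0.84) and 0.03 ± 0.07 for Trib1 (adjusted p = 0.92). The Trib3 slope was 1 call among 3 members, and 2.43% of all tested genes had such a call, 1.06% with a slope above that of unstimulated cells and 1.38% with one below. Without the 24 h libraries the Trib3 slope was 0.18 and without those of 12 h 0.43, both short of the threshold (adjusted p = 0.803 and 0.0663), while without those of 2 or 6 h it passed at 0.61 and 0.36.

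Mean Trib2 was lower at each higher dose of TNF. At 0.1 ng/ml it had 35.5, 39.98, 51.4 and 74.7 normalised CPM, at 1 ng/ml 32.8, 23.7, 43.7 and 49.5 and at 10 ng/ml the values above, against 63.6, 57.7, 68.01 and 69.96 in unstimulated cells. At 0.1 ng/ml the libraries of 2, 6 and 12 h lay below all unstimulated ones and that of 24 h above them, and at 1 ng/ml all 4 lay below, as did 1.31% of tested genes. Trib1 had 121, 108, 117 and 109 normalised CPM at 1 ng/ml, above all unstimulated libraries, as were 1.82% of tested genes. At 1 ng/ml Trib2 changed by -0.82 ± 0.20 (adjusted p = 0.0164) and Trib1 by 0.34 ± 0.09 (adjusted p = 0.0375), 2 of 3 members where 2.72% of tested genes passed, 2.01% higher and 0.713% lower. Trib1 lost its call when the libraries of any 1 duration were left out (log2 change 0.30, 0.38, 0.33 and 0.35 without 2, 6, 12 or 24 h), and Trib2 lost its call without the 6 h libraries (-0.68, adjusted p = 0.452) or the 12 h libraries (-0.88, adjusted p = 0.162). Trib3 did not pass at 1 ng/ml (0.26 ± 0.24, adjusted p = 0.651). At 0.1 ng/ml the log2 changes were 0.14 ± 0.09 for Trib1, -0.38 ± 0.20 for Trib2 and 0.11 ± 0.24 for Trib3, none past the threshold (adjusted p = 0.996, 0.981 and 0.996), where 0.0164% of tested genes passed.

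TNF at 10 ng/ml was also set directly against 1 ng/ml, a contrast that uses neither unstimulated nor combination cells. Trib2 differed by -0.53 ± 0.21 (adjusted p = 0.606), Trib1 by 0.10 ± 0.09 (adjusted p = 0.861) and Trib3 by 0.30 ± 0.23 (adjusted p = 0.817), and 0.238% of all tested genes passed. In the 12 and 24 h libraries alone Trib2 passed, at -0.68 (adjusted p = 0.00111), and in the 2 and 6 h libraries it did not, at -0.34 (adjusted p = 1). At 12 and 24 h the libraries of 10 ng/ml stood at 26.9 and 31.3 normalised CPM, and those of 1 ng/ml at 43.7 and 49.5.

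IFNγ, which signals through JAK kinases, changed all 3 genes at 1 and at 100 ng/ml. Trib1 had 115, 137, 133 and 155 normalised CPM at 2, 6, 12 and 24 h with 100 ng/ml, against 88.4, 93.4, 90.5 and 88.8 in unstimulated cells. All IFNγ libraries lay above the unstimulated ones, the 24 h library highest. Trib2 had 46.4, 31.7, 25.5 and 31.9 normalised CPM with IFNγ and 63.6, 57.7, 68.01 and 69.96 in unstimulated cells. It lay below the unstimulated libraries throughout, least so at 2 h. Trib3 had 16.04, 16.5, 35.5 and 48.4 normalised CPM with IFNγ and 12.2, 9.13, 21.1 and 15.8 in unstimulated cells. Here the groups overlapped, because the unstimulated 12 h library was above the IFNγ libraries of 2 and 6 h, but at each duration the IFNγ library was the higher of the pair. Of all tested genes, 5.83% lay above and 3.61% below the unstimulated libraries without overlap.

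The mean log2 changes at 100 ng/ml were 0.58 ± 0.09 for Trib1 (adjusted p = 1.44e-05, edgeR), -0.93 ± 0.20 for Trib2 (adjusted p = 0.00105) and 0.95 ± 0.23 for Trib3 (adjusted p = 0.00273). All 3 members passed, where 22.1% of tested genes did, 12.8% higher and 9.30% lower. With the IL-2 libraries in place of the unstimulated ones the values were 0.59, -0.93 and 1.02 (adjusted p = 1.28e-05, 0.00105 and 0.0017). In the 2 and 6 h libraries alone none of the 3 passed: the log2 changes were 0.47, -0.63 and 0.62 (adjusted p = 0.0554, 0.207 and 0.0887). In the 12 and 24 h libraries alone they were 0.68, -1.27 and 1.20 (adjusted p = 6.36e-04, 1.29e-08 and 3.45e-04). Trib2 also lost the call without the 12 h libraries (-0.78, adjusted p = 0.0673), and Trib3 in a model without a term for duration (1.01, adjusted p = 0.195). In the same libraries the 6 fibroblast markers summed to 15.6 to 23.5 CPM with IFNγ and 24.5 to 37.4 CPM in unstimulated cells, with Dcn at 7.01 to 16.1 CPM with IFNγ and 16.8 to 26.4 CPM in unstimulated cells. The 8 macrophage markers summed to 4.47 to 9.08 CPM with IFNγ and 3.73 to 6.53 CPM in unstimulated cells. Mitochondrial genes took 1.23, 1.14, 0.750 and 0.693% of counts at 2, 6, 12 and 24 h with IFNγ and 1.17, 1.20, 0.786 and 0.964% in unstimulated cells. The part of these in the result was not tested.

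The IFNγ effects on Trib2 and Trib3 had slopes on time that passed over all 4 durations. Per doubling of the hours the Trib2 effect changed by -0.22 ± 0.07 log2 units (adjusted p = 0.0409, edgeR), away from unstimulated cells, and the Trib3 effect by 0.31 ± 0.09 (adjusted p = 0.0319). The Trib1 slope was 0.11 ± 0.07 (adjusted p = 0.409). Slopes passed for 6.90% of tested genes, 3.47% above and 3.43% below the slope of unstimulated cells. The Trib2 slope missed the threshold with DESeq2's Wald test, at the same value (-0.22, adjusted p = 0.052). Both calls held without the 6 h libraries and were lost without those of 2, 12 or 24 h. Without them the Trib2 slope was -0.13, -0.19 and -0.35 (adjusted p = 0.623, 0.181 and 0.233), and the Trib3 slope 0.42, 0.35 and 0.15 (adjusted p = 0.0894, 0.0645 and 0.756).

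IFNγ at 1 ng/ml gave values close to those at 100 ng/ml, although the test below does not show that the doses act alike. At 1 ng/ml Trib1 had 129, 139, 125 and 125 normalised CPM, Trib2 had 48.3, 33.4, 34.3 and 36.8 and Trib3 had 17.4, 16.2, 39.1 and 45.4 at 2, 6, 12 and 24 h. All 3 passed against unstimulated cells, at log2 changes of 0.52 ± 0.09, -0.76 ± 0.20 and 0.97 ± 0.23 (adjusted p = 1.03e-04, 0.0089 and 0.0032), where 9.51% of tested genes were called higher and 5.47% lower. Trib1 lay above all unstimulated libraries, as did 4.74% of tested genes, and Trib2 below them, as did 2.47%, while Trib3 overlapped them. The Trib2 call was lost without the 6, 12 or 24 h libraries (-0.73, -0.68 and -0.69), and the Trib3 call without the 12 h libraries (1.00, adjusted p = 0.066). Both were also lost in the 2 and 6 h libraries alone (-0.58 for Trib2 and 0.67 for Trib3). Set directly against 1 ng/ml, 100 ng/ml differed by 0.06 ± 0.09 for Trib1, -0.17 ± 0.21 for Trib2 and -0.02 ± 0.21 for Trib3 (adjusted p = 1 for each). In that comparison 0 of 12203 genes passed in edgeR and 0 in DESeq2, and 303 had an unadjusted p under 0.05. At 0.01 ng/ml the levels overlapped those of unstimulated cells for all 3 genes, with log2 changes of 0.02 ± 0.09, -0.10 ± 0.19 and 0.12 ± 0.24 (adjusted p = 1 for each). There too 0 genes passed in edgeR and 0 in DESeq2, and 229 had an unadjusted p under 0.05.

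**Figure D2:**
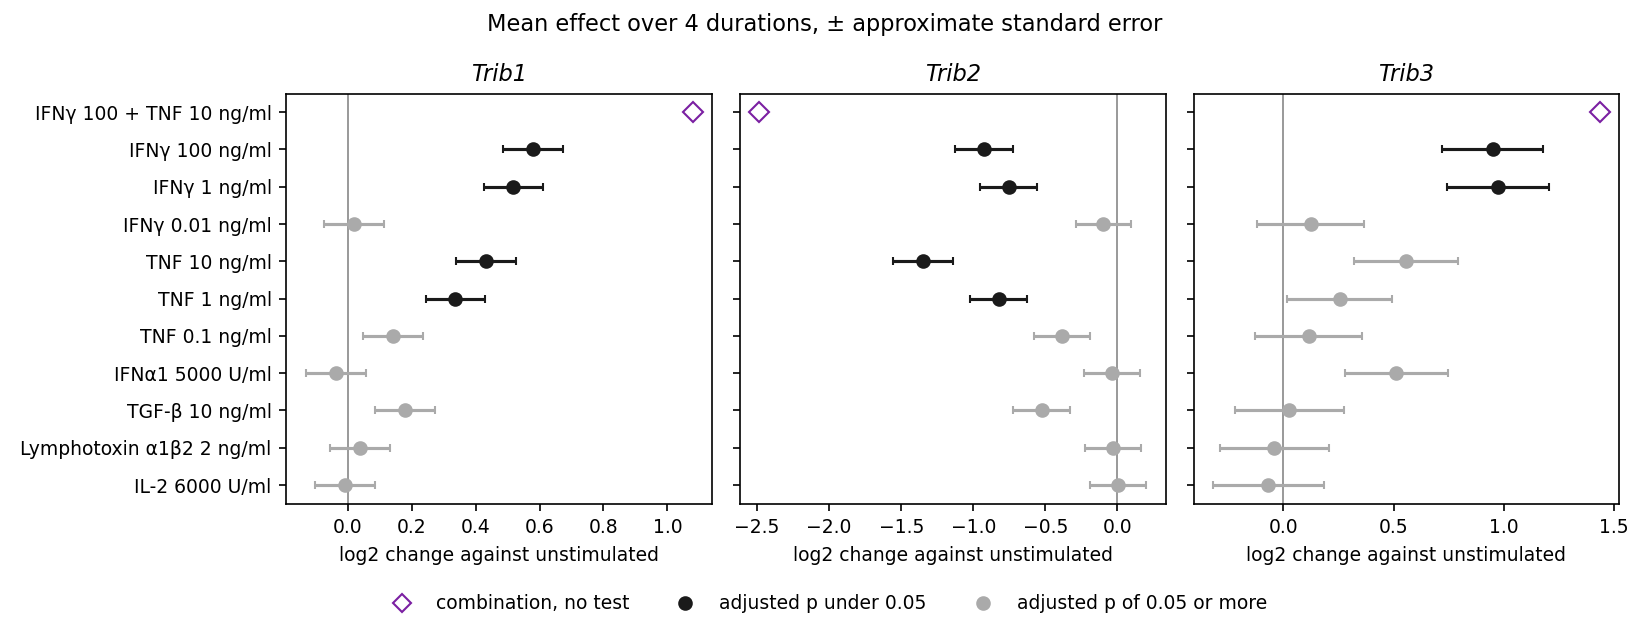
Mean log2 change against unstimulated cells over 4 durations for each cytokine condition, with approximate standard errors as bars. Black points passed an adjusted p of 0.05 in edgeR, grey ones did not, and the open diamond is the combination, by which the genes were picked and which carries no test. The doses of 1 and 100 ng/ml IFNγ give similar values for each gene, and Trib2 is lower at each higher dose of TNF.

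TNF at 10 ng/ml and IFNγ at 100 ng/ml were set against each other directly, in a contrast without unstimulated or combination cells. TNF against IFNγ gave -0.15 ± 0.09 for Trib1, -0.42 ± 0.22 for Trib2 and -0.39 ± 0.22 for Trib3 (adjusted p = 0.392, 0.255 and 0.31), where 10.4% of tested genes passed. For Trib2, the log2 ratio to unstimulated cells was -1.29, -1.61, -1.33 and -1.15 at 2, 6, 12 and 24 h with TNF and -0.45, -0.86, -1.40 and -1.13 with IFNγ. TNF thus gave the lower level at 2 and 6 h, and at 12 and 24 h the cytokines stood close together. The slope of the TNF effect minus that of the IFNγ effect was 0.27 ± 0.08 log2 units per doubling of the hours for Trib2 (adjusted p = 0.0393, edgeR), a test added after these values were seen, where 3.20% of tested genes passed. It missed the threshold when no filter on low counts was applied (0.27, adjusted p = 0.0508) and when the libraries of the compared groups were fitted alone (0.27, adjusted p = 0.139). It also missed it without the libraries of 2, 12 or 24 h, at 0.36, 0.24 and 0.32 (adjusted p = 0.205, 0.174 and 0.344). The same difference was -0.08 ± 0.07 for Trib1 and 0.08 ± 0.09 for Trib3 (adjusted p = 0.638 and 0.724).

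IFNα1, a type I interferon, was set beside IFNγ. With IFNα1 Trib2 had 42.6, 56.2, 73.03 and 81.9 normalised CPM at 2, 6, 12 and 24 h and Trib1 had 73.3, 110.5, 81.01 and 87.5. Trib2 was below every unstimulated library at 2 and 6 h and above them at 12 and 24 h, and Trib1 lay on both sides of them. Trib3 had 11.8, 16.1, 27.8 and 27.6 normalised CPM, above the unstimulated library of the same duration at 6, 12 and 24 h. Against unstimulated cells the log2 changes were -0.04 ± 0.09 for Trib1, -0.04 ± 0.19 for Trib2 and 0.51 ± 0.24 for Trib3 (adjusted p = 0.871, 0.942 and 0.188, edgeR), where 9.27% of tested genes passed, 6.18% higher and 3.09% lower. Trib3 passed when IFNα1 and unstimulated libraries were fitted alone (0.54, adjusted p = 0.0415).

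IFNγ at 100 ng/ml set directly against IFNα1 gave a higher Trib1 (log2 change 0.62 ± 0.09, adjusted p = 1.48e-05) and a lower Trib2 (-0.89 ± 0.20, adjusted p = 0.00269), 2 of 3 members where 16.1% of tested genes passed, 9.48% higher and 6.61% lower. Trib3 did not pass (0.44 ± 0.22, adjusted p = 0.175), except in the 12 and 24 h libraries alone (0.58, adjusted p = 0.0344). In the 2 and 6 h libraries alone neither call held (0.44 for Trib1 and -0.38 for Trib2, adjusted p = 0.121 and 0.584). In the 12 and 24 h libraries the values were 0.76 and -1.45 (adjusted p = 3.28e-04 and 3.20e-09). The Trib2 call was also lost without the 12 h libraries (-0.70, adjusted p = 0.165), without a duration term (-0.90, adjusted p = 0.0614) and with the compared groups alone (-0.91, adjusted p = 0.153).

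TGF-β, which signals through SMAD factors, gave Trib2 values below those of unstimulated cells that did not pass the test. Trib2 had 36.8, 34.9, 49.6 and 61.4 normalised CPM at 2, 6, 12 and 24 h, below the unstimulated library of the same duration each time and overlapping the unstimulated group at 24 h. The mean log2 change was -0.53 ± 0.20 (adjusted p = 0.105, edgeR), and 8.28% of tested genes passed, 5.02% higher and 3.25% lower. It passed without the 2 h libraries (-0.44, adjusted p = 0.0332) and with the compared groups alone (-0.53, adjusted p = 0.0142). Trib1 had 101, 92.6, 98.1 and 117 normalised CPM and Trib3 had 12.04, 12.3, 16.5 and 17.1, with log2 changes of 0.18 ± 0.09 and 0.03 ± 0.25 (adjusted p = 0.304 and 0.979). The slopes of the TGF-β effect were 0.05 ± 0.07 for Trib1, 0.17 ± 0.07 for Trib2 and -0.02 ± 0.10 for Trib3 (adjusted p = 0.852, 0.26 and 0.964), where 1.49% of tested genes passed.

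Lymphotoxin α1β2 and IL-2 gave no call for any of the 3 genes, whose libraries overlapped the unstimulated ones. Lymphotoxin gave log2 changes of 0.04 ± 0.09, -0.03 ± 0.19 and -0.04 ± 0.25 for Trib1, Trib2 and Trib3, and IL-2 gave -0.01 ± 0.09, 0.01 ± 0.19 and -0.07 ± 0.25 (adjusted p = 1 for each gene and cytokine, edgeR). In both comparisons 0 of 12203 genes passed in edgeR and 0 in DESeq2, while 195 genes with lymphotoxin and 152 with IL-2 had an unadjusted p under 0.05. These tests do not show that the levels were equal.

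Averaged over all groups, Trib3 was higher at 24 h than at 2 h. Over the 12 groups the lowest, median and highest Trib3 levels were 14.3, 20.9 and 76.7 normalised CPM at 24 h and 11.1, 12.1 and 17.4 at 2 h. The medians at 6 and 12 h were 12.1 and 22.8, so the medians differed mainly between 6 and 12 h. The 12 and 24 h libraries reuse the index sequences of the 2 and 6 h ones. Time and these sets of libraries therefore cannot be told apart. The ranges of 2 and 24 h overlapped, and the mean log2 change of 24 h against 2 h was 1.06 ± 0.13 (adjusted p = 1.14e-08, edgeR), 1 of 3 members where 67.3% of tested genes passed, 34.8% higher and 32.5% lower. That mean includes the combination and unstimulated libraries, by which the genes were picked. In the combination Trib3 stood at 14.7 normalised CPM at 2 h and 76.7 at 24 h, and in unstimulated cells at 12.2 and 15.8. In the unstimulated, IL-2 and lymphotoxin libraries alone the Trib3 change was 0.27 and did not pass (adjusted p = 0.0863). Trib2 gave 0.26 ± 0.12 (adjusted p = 0.0518) over all groups. It passed without combination and unstimulated libraries (0.36, adjusted p = 0.00563) and in the unstimulated, IL-2 and lymphotoxin libraries alone (0.29, adjusted p = 3.54e-04). Trib1 gave 0.07 ± 0.05 (adjusted p = 0.242). Between 6 h and 2 h the changes were 0.11 ± 0.05, -0.27 ± 0.12 and 0.04 ± 0.14 for Trib1, Trib2 and Trib3 (adjusted p = 0.0771, 0.0556 and 0.847), where 57.2% of tested genes passed. Between 24 h and 12 h they were 0.07 ± 0.05, 0.20 ± 0.12 and 0.09 ± 0.12 (adjusted p = 0.37, 0.181 and 0.611), where 32.1% passed.

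The combination of IFNγ at 100 ng/ml and TNF at 10 ng/ml gave the extreme values of all 3 genes. Trib1 had 185, 213, 147 and 219 normalised CPM at 2, 6, 12 and 24 h, against 88.4, 93.4, 90.5 and 88.8 in unstimulated cells. Trib2 had 20.9, 7.83, 10.6 and 8.02 normalised CPM in the combination and 63.6, 57.7, 68.01 and 69.96 in unstimulated cells, and Trib3 had 14.7, 22.9, 54.4 and 76.7, against 12.2, 9.13, 21.1 and 15.8 in unstimulated cells. Trib1 lay above and Trib2 below the unstimulated libraries throughout, while the Trib3 libraries overlapped through that of 2 h. Because the genes were picked on this contrast, it carries no test here: the mean log2 changes were 1.08 for Trib1, -2.49 for Trib2 and 1.44 for Trib3, or 2.11-fold higher, 5.60-fold lower and 2.70-fold higher. Of all tested genes, 20.9% were called higher and 21.2% lower in it, and 8.74% lay above and 5.54% below the unstimulated libraries without overlap. Mitochondrial genes took 1.27, 0.959, 0.616 and 0.513% of counts at 2, 6, 12 and 24 h in the combination. In unstimulated cells they took 1.17, 1.20, 0.786 and 0.964%, and the part of this difference in the values was not tested.

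The combination was also read against the sum of the single cytokines at each duration, as log2 ratios to the unstimulated library of that duration and again with no test. For Trib2 the combination gave -1.59, -2.84, -2.66 and -3.08 at 2, 6, 12 and 24 h, and the sum of IFNγ and TNF alone gave -1.74, -2.47, -2.73 and -2.28. The combination was thus close to the sum at 2 and 12 h and further below unstimulated cells than the sum at 6 and 24 h. For Trib3 the combination gave 0.26, 1.30, 1.36 and 2.26 and the sum 0.35, 1.01, 1.14 and 2.94, with the combination below the sum at 24 h, where each cytokine alone also had its highest ratio. For Trib1 it gave 1.06, 1.19, 0.70 and 1.30 and the sum 0.80, 0.89, 1.02 and 1.30, above the sum at 2 and 6 h, below it at 12 h and level with it at 24 h. Averaged over durations, the departure from the sum was 0.07 for Trib1, -0.21 for Trib2 and -0.07 for Trib3 on the log2 scale. Each value at 1 duration rests on 1 library per condition and has no replicate check.

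**Figure D3:**
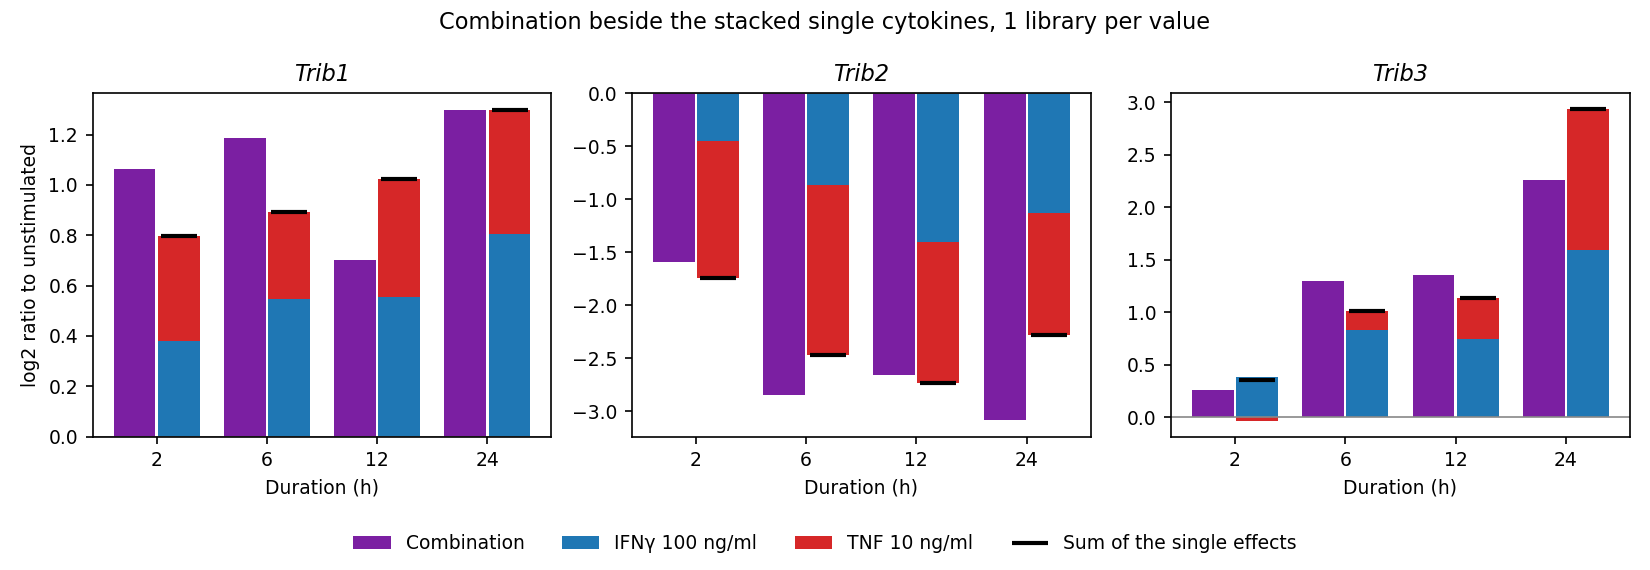
Log2 ratio to the unstimulated library of the same duration, against duration in hours, for the combination (left bar) and for IFNγ at 100 ng/ml and TNF at 10 ng/ml stacked (right bar), with their sum as a black line, 1 library per condition and duration. The combination reaches -3.08 for Trib2 at 24 h, where the sum is -2.28, and 2.26 for Trib3, where the sum is 2.94.

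Ordered by mean log2 level, the top of the Trib1 order was the combination, then IFNγ at 100 and 1 ng/ml, then TNF at 10 and 1 ng/ml, and the lowest group was IFNα1. Steps that involve the combination, by which the genes were picked, are not judged here. Of the other Trib1 steps, only that from TNF at 10 to TNF at 1 ng/ml was larger than its own SD over the 4 durations, and then barely (0.0981 ± 0.0976 log2 units). The Trib2 order ran the other way, from IL-2, unstimulated cells and lymphotoxin at the top to IFNγ at 100 ng/ml, TNF at 10 ng/ml and the combination at the bottom, and no step among the single cytokines and unstimulated cells exceeded its SD. In the Trib3 order the combination, IFNγ at 1 and at 100 ng/ml came first and IL-2 last, and only the step from IFNγ at 100 ng/ml to IFNα1 exceeded its SD (0.40 ± 0.32). The remaining neighbours among these 11 groups differed by less than the spread over durations.

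In the human gene for TRIB3 an element bound by ATF4 and CHOP is known, so the bases around the mouse start are shown. The stretch shown runs from 80 bases before to 25 bases after the RefSeq start, at chr2:152344036-152344140 on the minus strand of GRCm38.p6, 5′ to 3′, with the only match to the C/EBP-ATF element in capitals. RefSeq's promoter table held Trib2 and Trib3, 2 of the 3 members.
Trib3: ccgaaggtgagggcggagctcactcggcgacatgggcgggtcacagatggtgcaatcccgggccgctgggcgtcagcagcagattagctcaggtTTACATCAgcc
The motif searched was TGATGNAA on either strand, and the match is TTACATCA, which starts at base 15 of the transcript by RefSeq. The annotation used for exon lengths places the gene's start 28 bases further downstream. Of 32851 RefSeq windows of the same 300 bases, 3.97% hold this motif. For Trib2 the annotation used for exon lengths places the start 137 bases upstream of the RefSeq start, so its window holds fewer bases before that start. The windows of Trib2 (GC content 71%) and of Stk40 hold none of the 4 motifs searched, and the Trib3 window (GC content 58.3%) holds none of the other 3. Those were GGG and TCC with 4 bases between them for NF-κB (in 19.2% of all windows), TTCNNNGAA for STAT factors (8.30%) and a pair of GAAA runs with 2 bases between them for interferon-regulated genes (3.44%), all on both strands. A match of letters is a description of the sequence and not a binding site.

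The genes whose levels ran most like each member were ranked by Pearson's r over the 48 libraries, after removing the mean of each duration, among 9631 genes. For Trib3 they were Aars, an alanyl-tRNA synthetase (r = 0.96 and 0.93 with and without the combination libraries), Ccdc109b (0.95 and 0.91), Cd164 (0.93 and 0.90), the matrix proteoglycan Vcan (0.93 and 0.90) and Tiparp (0.92 and 0.87). For Trib1 they were the MAP kinase phosphatase Dusp8 (0.91 and 0.85), Phlda1 (0.90 and 0.84), Noct (0.89 and 0.84), the transcription factor Klf6 (0.89 and 0.80) and the uridine phosphorylase Upp1 (0.88 and 0.83). For Trib2 they were the scaffold gene Dlg5 (0.93 and 0.86), the ETS factor Etv4 (0.92 and 0.84), Arrdc3 (0.92 and 0.82), Dlg3 (0.92 and 0.83) and the TGF-β receptor Tgfbr1 (0.92 and 0.82). Without the combination libraries these 5 ranked 11, 24, 37, 32 and 43, so that none of them stayed among the 10 genes most like Trib2, while the 5 of Trib3 ranked 1, 2, 5, 4 and 11 and those of Trib1 2, 4, 5, 10 and 6. By Spearman's rho over all libraries the 5 of Trib2 ranked 3, 30, 17, 141 and 37. The libraries of 1 stimulus share their treatment, so these values describe the 48 libraries and carry no p.

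The pathway around Trib3, ATF4 and the integrated stress response, was followed in a list of 34 tested genes without Trib3. With IFNγ at 100 ng/ml 16 of them passed as higher and 0 as lower, and their median log2 change was 0.33, beside -0.02 over all tested genes, of which 12.8% were called higher and 9.30% lower. The largest were the stress factor Atf3 (1.90 ± 0.22, adjusted p = 2.91e-08), Nupr1 (0.84 ± 0.16), Ddit3, which encodes CHOP (0.82 ± 0.29), and the glutathione-degrading enzyme Chac1 (0.81 ± 0.26). Atf4 itself, named after its values were seen, passed at 0.33 ± 0.10 (adjusted p = 0.0117). Without the 2, 6, 12 or 24 h libraries the higher count was 20, 4, 2 and 5, in the 2 and 6 h libraries alone 1, in the 12 and 24 h libraries alone 26, and with the compared groups alone 7.

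With TNF at 10 ng/ml 7 of the 34 passed as higher and 0 as lower, with a median of 0.20, where 9.83% of all tested genes were called higher and 7.30% lower. They were led by Atf3 (1.02 ± 0.23), the cystine transporter Slc7a11 (0.98 ± 0.18, adjusted p = 1.56e-04), Nupr1 (0.74 ± 0.16) and the arginine transporter Slc7a1 (0.44 ± 0.13). The higher count was 15, 3, 2 and 4 without the 2, 6, 12 or 24 h libraries. IFNα1 raised 5 and lowered 0 (median 0.17), with 9, 3, 1 and 4 higher when each duration was left out in that order, where 6.18% of all tested genes were called higher and 3.09% lower. The largest with IFNα1 were Atf3 (1.03 ± 0.23), Ddit3 (0.96 ± 0.28), Nupr1 (0.81 ± 0.16) and the kinase gene Eif2ak2 (0.76 ± 0.17). TGF-β raised 1, Ddit4 (1.14 ± 0.22), and lowered 2, Stc2 (-0.78 ± 0.18) and the serine synthesis enzyme Phgdh (-0.31 ± 0.09), with a median of -0.08, where 5.02% of all tested genes were called higher and 3.25% lower. In the combination 24 passed as higher and 1, the kinase gene Eif2ak3, as lower (-0.37 ± 0.13; 1, 0, 0 and 1 without the 2, 6, 12 or 24 h libraries), and the median was 0.54, where 20.9% of all tested genes were called higher and 21.2% lower. There Atf3 stood at 2.47 ± 0.21, Chac1 at 1.58 ± 0.25, Nupr1 at 1.52 ± 0.15 and Ddit3 at 1.40 ± 0.28, and the higher count was 7 in the 2 and 6 h libraries alone, 26 in those of 12 and 24 h, and 11 with the compared groups alone.

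**Figure D4:**
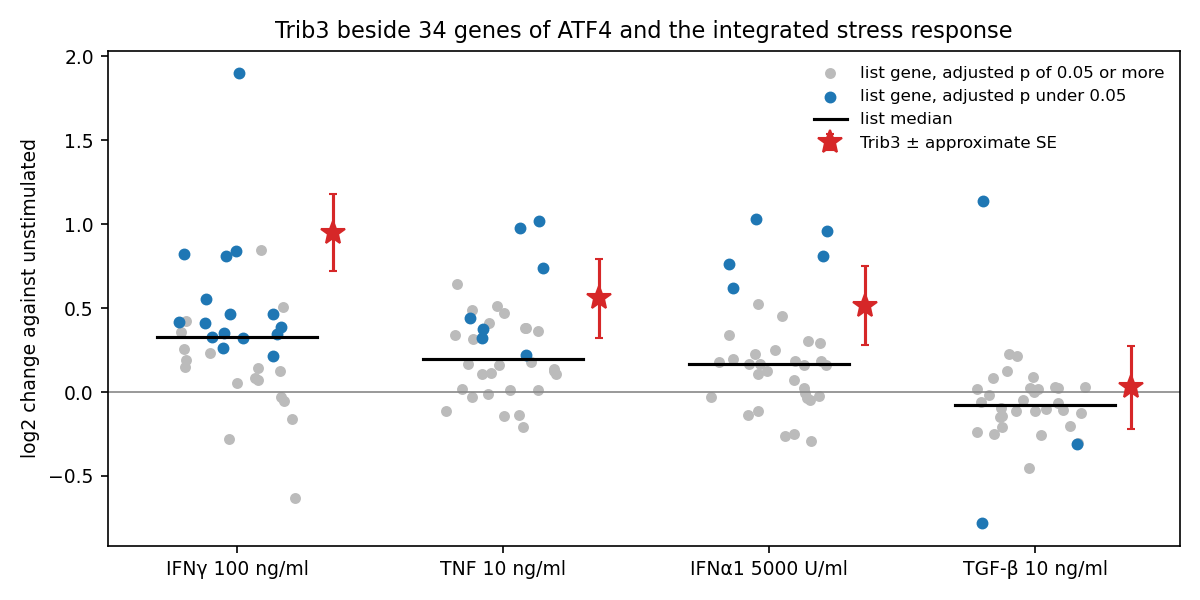
Log2 change against unstimulated cells of 34 genes of the integrated stress response (points, blue where the adjusted p was under 0.05), their median (line) and Trib3 with its approximate standard error (star) for 4 cytokines. Trib3 lies above the list median under all 4, and the list median is 0.33 with IFNγ and -0.08 with TGF-β.

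Chaperones and other genes of the unfolded protein response, a neighbouring stress pathway, had no call with the single cytokines. Of 15 tested genes, 0 passed in edgeR with IFNγ at 100 ng/ml, 0 with TNF at 10 ng/ml and 0 with IFNα1, in either direction, and DESeq2 called 0, 1 and 0 as higher. At an unadjusted p under 0.05 the counts were 2, 2 and 0. In the 12 and 24 h libraries alone 2 genes were called higher with IFNγ and 2 with TNF. In the combination 4 rose: the chaperone Hspa5 (0.74 ± 0.14), Herpud1 (0.74 ± 0.14), Dnajb9 (0.41 ± 0.16) and Manf (0.25 ± 0.07). Dnajc3 fell (-0.17 ± 0.07). These are 4 and 1 of 15, where 20.9% of all tested genes were called higher and 21.2% lower. In the combination, without the 2, 6, 12 or 24 h libraries, the higher count was 6, 7, 3 and 2 and the lower count 0, 0, 0 and 1, and the higher count was 0 with the compared groups alone.

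Among the known partners of Tribbles proteins, the 7 tested genes of the COP1 ubiquitin ligase did not pass with any cytokine in edgeR. At an unadjusted p under 0.05 there were 1 with IFNγ at 100 ng/ml, 1 with TNF at 10 ng/ml and 0 in the combination, and DESeq2 called 0, 0 and 0 there. Without the 24 h libraries 1 of them was called lower with IFNγ. Their medians were -0.02, -0.0018 and -0.05. Of 5 C/EBP factors, the substrates or relatives of substrates of that ligase, IFNγ raised Ddit3 and Cebpg (0.26 ± 0.08). Both genes are also counted in the list of the integrated stress response above. TNF lowered Cebpa (-0.69 ± 0.25, adjusted p = 0.0487), the gene of C/EBPα, and raised Cebpg (0.22 ± 0.08). In the combination Cebpa was at -0.92 ± 0.25, Cebpb at 1.00 ± 0.26, Ddit3 at 1.40 ± 0.28 and Cebpg at 0.37 ± 0.08, and all 4 passed. Of all tested genes 12.8% were called higher and 9.30% lower with IFNγ, 9.83% and 7.30% with TNF and 20.9% and 21.2% in the combination. With TNF, Cebpa lost its call without the libraries of any 1 duration, and Cebpg without those of 6, 12 or 24 h. With IFNγ 0 C/EBP genes were called without the 6, 12 or 24 h libraries, and the Cebpa call in the combination was lost without the 6 h libraries.

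Of 9 genes for MEK, MKK and AKT kinases, TNF at 10 ng/ml raised 3: Map2k6 (0.67 ± 0.12), Map2k1, the gene of MEK1 (0.33 ± 0.07), and Map2k3 (0.27 ± 0.08). IFNγ at 100 ng/ml raised 3 and lowered 3, among them Map2k1 (0.30 ± 0.07), Map2k2 (-0.28 ± 0.08) and Map2k7 (-0.24 ± 0.06). The combination raised 4 and lowered 2. Of all tested genes 9.83% were called higher and 7.30% lower with TNF, 12.8% and 9.30% with IFNγ and 20.9% and 21.2% in the combination. Without the 2, 6, 12 or 24 h libraries the higher count was 3, 2, 1 and 3 with TNF and 4, 2, 2 and 3 with IFNγ, and the lower count 3, 2, 0 and 3 with IFNγ and 1, 2, 1 and 1 in the combination.

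Output genes of the ERK pathway, which mutant NRAS drives, changed in both directions. Of 19 tested, TNF at 10 ng/ml raised 2 and lowered 5 (median 0.12, above 0 although more genes passed as lower). The largest were the feedback inhibitor Spry1 (-1.29 ± 0.27), the ERK phosphatases Dusp5 (0.94 ± 0.11) and Dusp4 (-0.57 ± 0.13), and the ETS factor Etv1 (-0.57 ± 0.19). IFNγ at 100 ng/ml raised 5 and lowered 4 (median 0.02), with Spry1 at -1.05 ± 0.27, the early gene Egr1 at 0.84 ± 0.18, Dusp5 at 0.57 ± 0.11 and Dusp4 at -0.53 ± 0.13. In the combination 10 rose and 7 fell (median 0.28), with Spry1 at -2.04 ± 0.29, Dusp5 at 1.35 ± 0.11, the receptor Epha4 at -1.23 ± 0.38 and Phlda1 at 1.07 ± 0.11. With TGF-β, Spry1 (-1.01 ± 0.26) and Fosl1 (-0.41 ± 0.13) fell, and Dusp5 (0.95 ± 0.11) and Spred2 (0.30 ± 0.06) rose. Dusp6 (0.34 ± 0.08) and Spred1 (0.26 ± 0.07) rose with IFNα1, and no gene of the list passed as lower there. The shares of all tested genes called higher and lower were 9.83% and 7.30% with TNF and 12.8% and 9.30% with IFNγ. They were 20.9% and 21.2% in the combination, 5.02% and 3.25% with TGF-β and 6.18% and 3.09% with IFNα1. Without the 2, 6, 12 or 24 h libraries TNF raised 7, 1, 1 and 2 and lowered 5, 3, 4 and 3, IFNγ raised 8, 4, 4 and 4 and lowered 5, 3, 2 and 3, and the combination lowered 7, 5, 4 and 6.

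Stk40, a pseudokinase related to the Tribbles family, is given for comparison. It fell with TGF-β (-0.49 ± 0.08, adjusted p = 1.74e-05, edgeR) and with TNF at 10 ng/ml (-0.25 ± 0.08, adjusted p = 0.0198). It did not pass with IFNγ at 100 ng/ml (-0.01 ± 0.08, adjusted p = 0.926) or in the combination (-0.14 ± 0.08, adjusted p = 0.146). Per kilobase it stood at 18.3 ± 2.70 normalised CPM per kb in the combination and 20.2 ± 2.30 in unstimulated cells (mean ± SD over 4 durations).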

How the data were processed

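RNA was read from 48 bulk libraries of a mouse melanoma line (stranded mRNA libraries, per the labels' protocols), 4 durations for each of 12 groups. The deposited table holds raw read counts per gene, whole numbers that were not normalised. Reads were aligned with HISAT to GRCm38, per the submitters' processing notes; not given in the sources used here are the aligner's version, the counter, the annotation and the strand setting. Doses were taken from the sample titles, because the separate TNF dose fields differ from them.

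Genes past edgeR's filterByExpr by stimulus (minimum count 10, minimum total 15) were tested with edgeR 4.0.16 and limma 3.58.1 in R 4.3.3, with TMM scaling and a robust quasi-likelihood fit of stimulus plus duration to all 48 libraries (33 residual degrees of freedom). Slopes added stimulus by log2 hours (22 residual degrees of freedom). Calls used a Benjamini-Hochberg adjusted p under 0.05 over all genes tested in a comparison. The standard error is approximate, the absolute log2 change over the square root of F. The p-values measure the spread over durations, pooled over groups, and not that between cultures. No 2 libraries held identical values. The fit was tested on simulated data for TNF at 10 ng/ml against unstimulated cells, with known log2 changes of -2, -1, 1 and 2. In that order 49 of 50, 48 of 49, 48 of 49 and 50 of 50 genes were called. Of 11803 unchanged genes 14 were called. Slopes, changes with duration and smaller changes were not covered.

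The libraries of 2 and 6 h share 0 of 24 index sequences, and those of 12 and 24 h use all 24 of them again. The labels do not call this a batch, so values within each pair of durations are given where a call ends. Alternatives were DESeq2 1.42.0 (its Wald test, and its size factors in edgeR), no filter, each duration left out, the compared groups alone, no duration term and IL-2 in place of unstimulated cells. Levels per kilobase used merged exon lengths of GENCODE M21. Promoter windows came from RefSeq (250 bases before to 50 after the start). Intervals on levels are 95% Poisson intervals and cover counting error only. Python 3.11.15 with pandas 2.3.3, scipy 1.17.1 and matplotlib 3.10.9 made the summaries and figures.

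The members, the lists and the tests were chosen with earlier results of these data known. Genes named are the 3 members, the 5 genes most like each by Pearson's r of log2 CPM (prior count 2, mean CPM of at least 5, no predicted genes), and, per list and comparison, at most 4 called genes with the largest log2 changes; Atf4, Eif2ak3 and Dnajc3 were named after their values were seen. One gene that this rule names is not reported here. The slope difference, the list counts under alternatives and the share of genes without overlap were added after the values were seen.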

Additional observations from a re-analysis of the deposited data

Results flagged for a closer look

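Each result named here passed a test of change with time over all 4 durations, the slope on log2 hours in edgeR. The TNF effect on Trib3 at 10 ng/ml had a slope of 0.39 log2 units per doubling of the hours against unstimulated cells, with single-duration log2 ratios of -0.03, 0.18, 0.39 and 1.34 at 2, 6, 12 and 24 h. The IFNγ effect at 100 ng/ml had a slope of 0.31 for Trib3, with ratios of 0.39, 0.83, 0.75 and 1.60. For Trib2 the slope of the IFNγ effect was -0.22, with ratios of -0.45, -0.86, -1.40 and -1.13. That slope missed the threshold with DESeq2's Wald test. The slope of the TNF effect minus that of the IFNγ effect was 0.27 for Trib2, a test added after the values were seen. This difference missed the threshold with no filter on low counts and with the compared groups alone. Each slope rests on 4 libraries per group. Without the 24 h libraries none of these 4 slopes passed, at 0.18, 0.15, -0.35 and 0.32 in the order given. None of them passed without the 12 h libraries either. In none of the 36 pairs of gene and group did the highest or lowest of the 4 libraries stand apart by Dixon's test, which ignores that the 4 libraries are different durations.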

How the results depend on the processing

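Each value for a member was computed again under the listed alternatives. In 706 cases direction and call were kept, in 47 the call was lost, in 13 a call was gained and in 44 the sign changed, always of a value without a call. The Trib2 fall with TNF 10 kept its call under all of them. Values below are log2 changes, doses are in ng/ml, and the cause of each change was not tested. In the 2 and 6 h libraries alone the calls lost were Trib1 IFNγ 100 (0.47), Trib2 IFNγ 100 (-0.63), Trib3 IFNγ 100 (0.62), Trib2 IFNγ 1 (-0.58), Trib3 IFNγ 1 (0.67), Trib1 TNF 10 (0.38), Trib1 TNF 1 (0.33), Trib2 TNF 1 (-1.12), Trib1 IFNγ 100 against IFNα1 (0.44) and Trib2 IFNγ 100 against IFNα1 (-0.38), and the sign changed for Trib1 IFNγ 0.01 (-0.013), Trib1 IFNα1 (0.030), Trib3 lymphotoxin (0.20), Trib1 IL-2 (0.019), Trib2 IL-2 (-0.11), Trib3 IL-2 (0.089), Trib3 TNF 10 against 1 (-0.0037), Trib1 IFNγ 100 against 1 (-0.087) and Trib3 departure from the sum (0.15). With no duration term the calls lost were Trib3 IFNγ 100 (1.01), Trib2 IFNγ 1 (-0.76), Trib3 IFNγ 1 (1.03), Trib1 TNF 1 (0.33), Trib2 TNF 1 (-0.79) and Trib2 IFNγ 100 against IFNα1 (-0.90), and the sign changed for Trib3 TGF-β (-0.00091). In the 12 and 24 h libraries alone the calls lost were Trib1 TNF 1 (0.34), the calls gained were Trib3 TNF 10 (0.90), Trib2 TNF 10 against 1 (-0.68) and Trib3 IFNγ 100 against IFNα1 (0.58), and the sign changed for Trib2 IFNα1 (0.18), Trib3 TGF-β (-0.12), Trib2 lymphotoxin (0.023), Trib2 TNF 10 against IFNγ 100 (0.024) and Trib1 departure from the sum (-0.13). With no filter on low counts the calls lost were Trib1 TNF 1 (0.34), Trib2 TNF 1 (-0.82) and Trib2 TNF minus IFNγ slope (0.27). With the compared groups alone the calls lost were Trib2 IFNγ 100 against IFNα1 (-0.91) and Trib2 TNF minus IFNγ slope (0.27), and the calls gained were Trib3 IFNα1 (0.54), Trib2 TGF-β (-0.53) and Trib2 24 h against 12 h (0.22). Against IL-2 the sign changed for Trib3 lymphotoxin (0.027), Trib2 TNF 10 slope (-0.033) and Trib3 TGF-β slope (0.029). In the unstimulated, IL-2 and lymphotoxin libraries alone the calls lost were Trib3 24 h against 2 h (0.27), the calls gained were Trib1 6 h against 2 h (0.18) and Trib2 24 h against 2 h (0.29), and the sign changed for Trib3 6 h against 2 h (-0.23), Trib1 24 h against 12 h (-0.043) and Trib3 24 h against 12 h (-0.31). With DESeq2 size factors the calls gained were Trib2 6 h against 2 h (-0.28). With the DESeq2 Wald test the calls lost were Trib2 IFNγ 100 slope (-0.22), and the calls gained were Trib2 6 h against 2 h (-0.32). Without the combination and unstimulated libraries the calls gained were Trib2 24 h against 2 h (0.36). Leaving out the libraries of 1 duration in turn changed a call or a sign, or moved an untested value, for Trib2 IFNγ 100 (-1.13 to -0.78), Trib2 IFNγ 1 (-0.90 to -0.68), Trib3 IFNγ 1 (0.77 to 1.12), Trib3 TNF 10 (0.21 to 0.74), Trib1 TNF 1 (0.30 to 0.38), Trib2 TNF 1 (-0.95 to -0.68), Trib3 TNF 0.1 (-0.025 to 0.20), Trib1 IFNα1 (-0.13 to 0.043), Trib2 IFNα1 (-0.11 to 0.11), Trib2 TGF-β (-0.65 to -0.44), Trib3 TGF-β (-0.091 to 0.17), Trib3 lymphotoxin (-0.13 to 0.089), Trib1 IL-2 (-0.056 to 0.015), Trib2 IL-2 (-0.072 to 0.052), Trib3 IL-2 (-0.19 to 0.0091), Trib1 IFNγ 100 against 1 (-0.028 to 0.13), Trib3 IFNγ 100 against 1 (-0.083 to 0.021), Trib2 IFNγ 100 against IFNα1 (-1.24 to -0.70), Trib2 TNF 10 slope (-0.027 to 0.23), Trib3 TNF 10 slope (0.18 to 0.61), Trib2 IFNγ 100 slope (-0.35 to -0.13), Trib3 IFNγ 100 slope (0.15 to 0.42), Trib1 TGF-β slope (-0.040 to 0.21), Trib3 TGF-β slope (-0.12 to 0.022), Trib2 TNF minus IFNγ slope (0.24 to 0.36), Trib1 departure from the sum (-0.012 to 0.17), Trib3 departure from the sum (-0.19 to 0.17), Trib1 combination slope (-0.12 to 0.069) and Trib2 combination slope (-0.49 to -0.12). The number of called genes moved between 446 to 3442 for IFNγ 100 (2702 as reported), 272 to 2935 for IFNγ 1 (1827 as reported), 283 to 2645 for TNF 10 (2091 as reported), 38 to 859 for TNF 1 (332 as reported), 175 to 1363 for IFNα1 (1131 as reported), 241 to 1206 for TGF-β (1010 as reported), 0 to 374 for TNF 10 against 1 (29 as reported), 365 to 1605 for TNF 10 against IFNγ 100 (1267 as reported), 134 to 3101 for IFNγ 100 against IFNα1 (1964 as reported), 23 to 415 for the TNF slope (297 as reported), 37 to 1001 for the IFNγ slope (842 as reported), 17 to 278 for the TGF-β slope (182 as reported) and 79 to 517 for the difference in slope (390 as reported). No paired analysis was possible because the labels give no replicate numbers and each stimulus has 1 library per duration; duration is a term of the model in its place. With 63 counts in the lowest Trib3 library and 68 in the lowest Trib2 library, small differences at 1 duration could not be resolved.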

Other observations

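Targets and members of the FOXO family, which TRIB2 has been linked to in human melanoma cells, were followed in a list of 18 tested genes, chosen with earlier results of these data known. TNF at 10 ng/ml raised 4 and lowered 4 (median log2 change -0.07, beside -0.02 over all tested genes), where 9.83% of tested genes were called higher and 7.30% lower. The largest were the BH3-only genes Bmf (-1.87 ± 0.33) and Bcl2l11 (1.12 ± 0.13), the transcription factor Klf2 (-0.82 ± 0.19) and the ubiquitin ligase gene Fbxo32 (-0.76 ± 0.11). IFNγ at 100 ng/ml raised 7 and lowered 4 (median 0.07), where 12.8% of all tested genes were called higher and 9.30% lower, led by the PI3K inhibitor gene Pik3ip1 (1.69 ± 0.26), Bmf (-1.32 ± 0.30), Txnip, whose protein binds thioredoxin (1.26 ± 0.16) and Fbxo32 (-1.002 ± 0.11). TGF-β raised 5 and lowered 1, with Foxo1 at 1.27 ± 0.14, Gadd45a at 0.99 ± 0.24, Fbxo32 at 0.63 ± 0.10 and Ccng2 at 0.60 ± 0.13, where 5.02% of all tested genes were called higher and 3.25% lower. IFNα1 raised Pik3ip1 (1.26 ± 0.27), Txnip (1.00 ± 0.16), Sesn3 (0.58 ± 0.12) and Bcl2l11 (0.51 ± 0.13), and no gene of the list passed as lower. Of all tested genes 6.18% were called higher and 3.09% lower with IFNα1. Trib2 did not pass with IFNα1 (-0.04 ± 0.19, adjusted p = 0.942, edgeR). Whether Trib2 has a part in the changes of this list was not tested. Without the 2, 6, 12 or 24 h libraries TNF raised 4, 5, 2 and 3 and IFNγ lowered 4, 2, 2 and 2. The combination raised 7 and lowered 3, with Bmf at -2.99 ± 0.37, Pik3ip1 at 1.79 ± 0.26, Fbxo32 at -1.66 ± 0.12 and Bcl2l11 at 1.45 ± 0.13, where 20.9% of all tested genes were called higher and 21.2% lower.

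Feedback genes of the WNT pathway had 5 tested members, and Notum, whose enzyme inactivates WNT proteins, fell with TGF-β (-1.58 ± 0.40), with TNF at 10 ng/ml (-1.49 ± 0.40) and in the combination (-0.95 ± 0.36), where Lef1 also fell (-0.64 ± 0.20). Of all tested genes 3.25% were called lower with TGF-β, 7.30% with TNF and 21.2% in the combination. Without the 2, 6, 12 or 24 h libraries the lower count with TNF was 1, 0, 1 and 1 and in the combination 3, 1, 1 and 1.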
